A study of Mus musculus with 6 samples.

Results

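The 10 genes described here mark the stem cells and the differentiated cells of the colon crypt. Ascl2, Sox9, Prom1 and Cd44 stand on the stem side, Vil1 for absorptive cells and Tspan8 for absorptive and goblet cells. Muc2, Tff3 and Reg4 stand for secretory cells and Chga for enteroendocrine cells. They were taken as every probe set whose symbol in the array's platform annotation is one of these names. This gave 21 of the 45037 non-control probe sets, standing for 10 of 18193 named genes. The cells were primary cultures of 1 tumour line, #3346, from the iKAP mouse model of colorectal cancer, in which a tamoxifen-activated Cre driven by the Villin promoter deletes Apc and Trp53 in gut epithelium. All arrays share the alleles of this model. The arrays labelled IRF2 (n = 3) came from cells with a stable lentiviral IRF2 open reading frame, and the GFP control arrays (n = 3) from cells with GFP in the same plasmid backbone. The medium of both was DMEM containing a tetracycline-free additive, and total RNA was read on Affymetrix 3' arrays. The labels leave unsaid if replicate arrays stem from separate cultures; the p-values therefore cover the spread among arrays alone, and that spread may be technical.

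The probe set of Irf2, the gene named by the labels, was checked first. It read 36.3 ± 0.934 on the arrays labelled IRF2 and 62.6 ± 2.53 on those of the GFP control (SD, 3 arrays each), a log2 difference of -0.79 (SE 0.06, limma adjusted p = 7.49e-07). This goes against the label, and which part of the transcript the probe set reads is not given, so every direction below is that of the arrays labelled IRF2. All values are deposited linear intensities, which cannot be compared between probe sets. A difference is the mean log2 intensity of the arrays labelled IRF2 minus that of the GFP control arrays, so that a positive one is higher in the arrays labelled IRF2. A rank is the percentile of a probe set among all non-control probe sets of its array. Probe sets with a mean at or under an intensity of 11.3 (the 40th percentile) were not tested, and a call is a limma adjusted p under 0.05 over all 27022 probe sets tested. With 3 arrays a group, precision is limited by their number.

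The colon crypt is renewed by stem cells at its base, which are kept by Wnt signalling through beta-catenin and TCF factors. ASCL2 is a transcription factor of the stem cell state under Wnt control, SOX9 is a transcription factor of stem and progenitor cells, PROM1 (CD133) is a membrane glycoprotein and CD44 is a hyaluronan receptor and Wnt target. Cells that leave the base become absorptive colonocytes, with a villin-supported brush border, or secretory cells, among them goblet cells that release the mucin MUC2 and the trefoil peptide TFF3 and enteroendocrine cells that store chromogranin A. Loss of APC, which is frequent in colorectal tumours, leaves this signalling on.

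Of the 10 genes, 2 had a probe set that passed the test, and both were higher in the arrays labelled IRF2: Tspan8 by 1.11-fold and Cd44 by 1.06-fold. Of the markers' 21 probe sets, 12 lay above the filter and 9 did not. Of those 12, 2 were called higher and 0 lower by limma, where 4 had an unadjusted p under 0.05 and none of these was lower. Over all probe sets tested, 28.7% were called, 13.0% higher and 15.7% lower. The groups did not overlap for 5 of the 12, all higher in the arrays labelled IRF2, against 40.5% of all probe sets above the filter (19.2% higher and 21.3% lower). By gene, Sox9, Cd44, Tspan8, Muc2 and Tff3 had a tested probe set, while Ascl2, Prom1, Vil1, Reg4 and Chga had none. The filter lay between Muc2, the dimmest tested marker at a geometric mean of 12.3, and Ascl2, whose brightest probe set had 9.65.

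**Figure D1:**
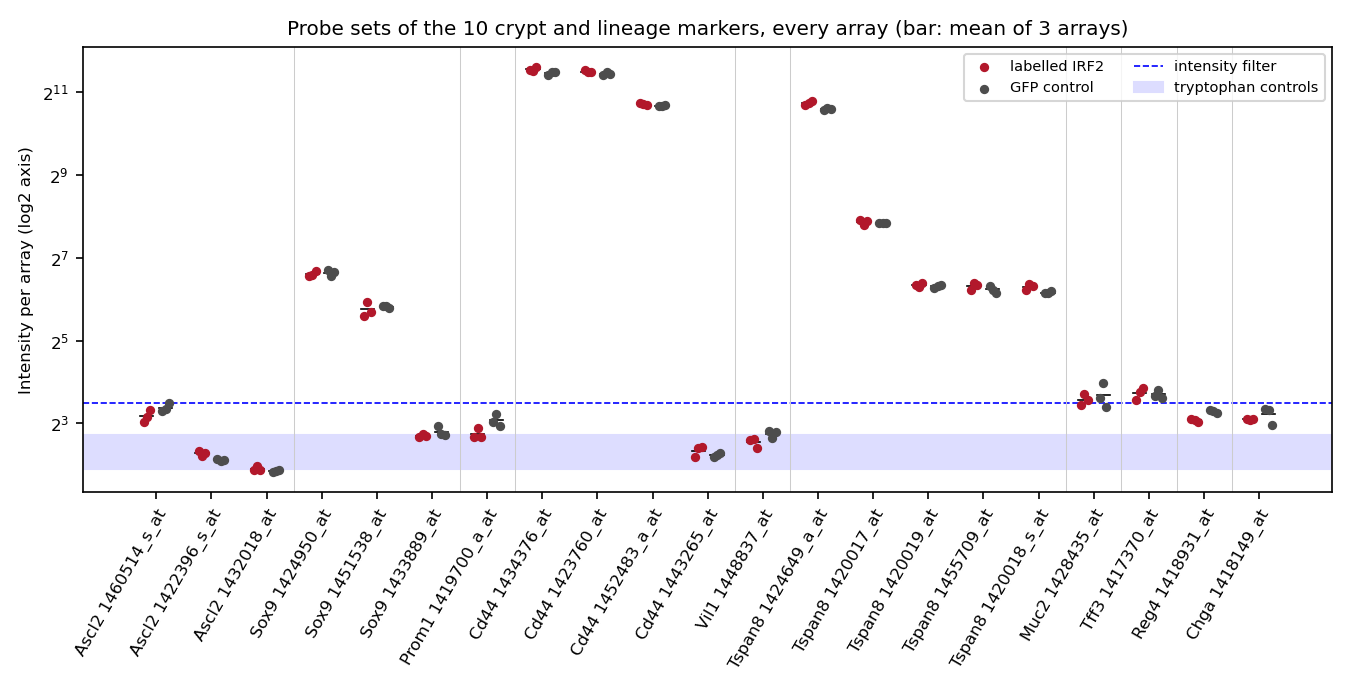
Deposited intensity (log scale) of the markers' 21 probe sets, with 1 point for each array, arrays labelled IRF2 left of GFP control arrays, a bar at the mean of 3 arrays, a dashed line at the filter and a band over the tryptophan controls. The brightest probe sets of Cd44 and Tspan8 stand far above the filter of 11.3, and Ascl2, Prom1, Vil1, Reg4 and Chga lie under it on average.

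Cd44, the hyaluronan receptor, ranked between the 98.9 and 99.0 percentiles on all 6 arrays by its brightest probe set. That probe set, 1434376_at, read 2969, 2944 and 3111 on the arrays labelled IRF2, against 2724, 2885 and 2871 on the GFP control arrays. The groups did not overlap, and the difference was 0.09 (SE 0.03, 95% interval 0.03 to 0.15, limma adjusted p = 0.022). The size is small: 3.85% of the called probe sets had a smaller absolute difference, and the median absolute difference of called probe sets was 0.23. The call was lost without GFP control array 1 (0.06, adjusted p = 0.0865), without array 3 labelled IRF2 (0.07, adjusted p = 0.0936), without the intensity trend in the variance model (adjusted p = 0.181) and in the mean over Cd44's probe sets (0.07, adjusted p = 0.0637). The other 2 tested Cd44 probe sets, whose groups did not overlap either, were higher by 0.05 (SE 0.02, limma adjusted p = 0.115) and 0.04 (SE 0.02, limma adjusted p = 0.166), which did not pass. The first of them passed when GFP control array 2 was left out (adjusted p = 0.0455). A further Cd44 probe set, 1443265_at, lay under the filter, with 4.53, 5.26 and 5.36 on the arrays labelled IRF2 and 4.52, 4.73 and 4.86 on the GFP control arrays.

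Sox9 ranked between the 73.7 and 74.8 percentiles on all 6 arrays by its brightest probe set. That probe set, 1424950_at, read 94.0, 95.3 and 102.2 on the arrays labelled IRF2, against 104.1, 94.6 and 101.0 on the GFP control arrays. The groups overlapped, and the difference was -0.04 (SE 0.05, 95% interval -0.16 to 0.08, limma adjusted p = 0.656). As a fold, the interval runs from 0.896 to 1.06. Sox9's second tested probe set read 48.6, 61.3 and 51.6 on the arrays labelled IRF2, against 56.7, 56.7 and 54.7 on the GFP control arrays, a difference of -0.06 (SE 0.08, limma adjusted p = 0.617). Another Sox9 probe set lay under the filter, with 6.32, 6.66 and 6.43 on the arrays labelled IRF2 and 7.68, 6.65 and 6.58 on the GFP control arrays.

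Ascl2 and Prom1 lay under the filter and were therefore not tested in the main fit. The brightest Ascl2 probe set read 8.19, 8.86 and 9.95 on the arrays labelled IRF2, against 9.75, 10.2 and 11.2 on the GFP control arrays, a difference of -0.21 with overlapping groups. Another Ascl2 probe set, 1422396_s_at, went the other way: it read 5.01, 4.66 and 4.88 on the arrays labelled IRF2, against 4.39, 4.29 and 4.34 on the GFP control arrays, with no overlap. All of these 6 intensities lie within the 3.69 to 6.52 spanned by the array's tryptophan control probe sets, which no mouse transcript should fill. The remaining Ascl2 probe set read 3.54 to 3.91 over all 6 arrays. Prom1 read 6.36, 7.45 and 6.33 on the arrays labelled IRF2, against 8.17, 9.34 and 7.65 on the GFP control arrays. All 3 arrays labelled IRF2 were lower, by -0.32 on the log2 scale, which shrank to -0.10 with 16 added to every intensity. On arrays 1 and 3 labelled IRF2, Prom1 fell within the range of the tryptophan controls. In the fit without the filter, Prom1 had a limma adjusted p of 0.0504.

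Tspan8, a tetraspanin of the epithelial cell membrane that is abundant in gut epithelium and in many carcinomas, had the smallest adjusted p of the markers. Its brightest probe set, 1424649_a_at, read 1665, 1719.7 and 1774 on the arrays labelled IRF2, against 1531, 1573 and 1540.1 on the GFP control arrays. Every array labelled IRF2 was above every GFP control array, with a difference of 0.15 (SE 0.03, 95% interval 0.10 to 0.21, limma adjusted p = 4.79e-04). Of the called probe sets, 24.2% had a smaller absolute difference. The other 4 Tspan8 probe sets were also higher but did not pass, at 0.02 to 0.14, with limma adjusted p-values from 0.082 to 0.738. The largest of these, 1420018_s_at, read 74.5, 82.4 and 79.6 on the arrays labelled IRF2, against 71.0, 70.6 and 72.8 on the GFP control arrays, without overlap, and passed when array 1 labelled IRF2 was left out (adjusted p = 0.045). The mean over the 5 probe sets was higher by 0.09 (limma adjusted p = 0.0479).

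**Figure D2:**
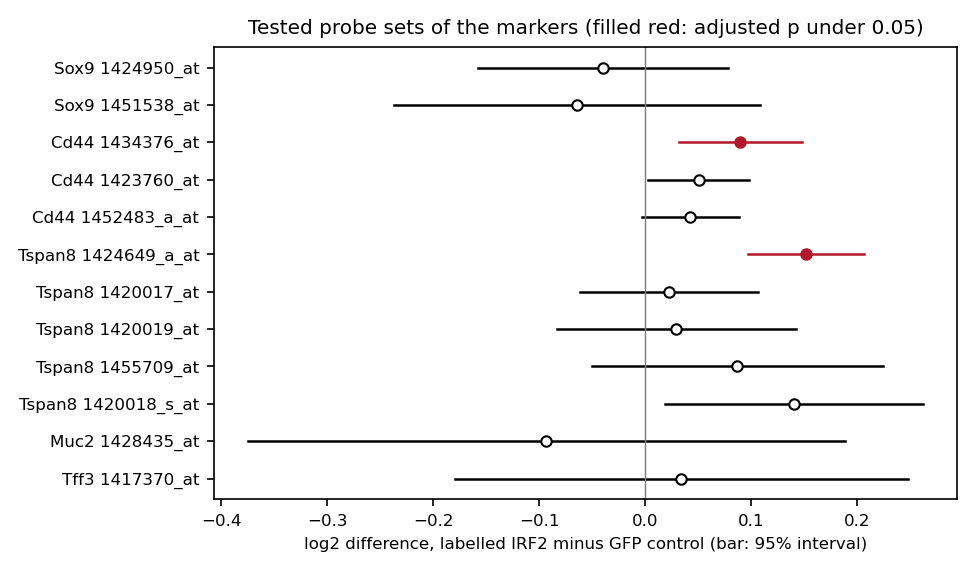
Log2 difference, arrays labelled IRF2 minus GFP control arrays, of the 12 tested probe sets with the 95% interval of the limma fit (n = 3 arrays a group); filled points passed the test. Tspan8 at 0.15 and Cd44 at 0.09 passed, and the intervals of both Sox9 probe sets, Muc2 and Tff3 include 0.

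Vil1, the actin-bundling villin of the brush border, read 6.04, 6.14 and 5.30 on the arrays labelled IRF2, against 7.03, 6.27 and 6.90 on the GFP control arrays. The groups did not overlap, but the ranks lay between the 15.5 and 26.4 percentiles and it lay under the filter. The readings of the arrays labelled IRF2, and that of GFP control array 2, fell within the 3.69 to 6.52 of the tryptophan controls. With 16 added to every intensity, the difference of -0.21 shrank to -0.06. Vil1, whose promoter drives the Cre of this model, had 1 probe set, and its intensity alone does not give the level of the transcript.

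The secretory markers were dim throughout. Muc2, the gel-forming mucin of goblet cells, read 10.8, 13.1 and 11.8 on the arrays labelled IRF2, against 12.2, 15.7 and 10.6 on the GFP control arrays. The groups overlapped, with a difference of -0.09 (SE 0.13, 95% interval -0.38 to 0.19, limma adjusted p = 0.663). Tff3, the goblet cell trefoil peptide, read 11.9, 13.6 and 14.4 on the arrays labelled IRF2, against 12.7, 14.1 and 12.1 on the GFP control arrays, a difference of 0.03 (SE 0.10, 95% interval -0.18 to 0.25, limma adjusted p = 0.846). Both intervals allow changes larger than those called for Cd44 and Tspan8. Reg4, a secreted lectin-like protein of deep crypt secretory and endocrine cells, read 8.65, 8.46 and 8.20 on the arrays labelled IRF2, against 10.006, 9.80 and 9.57 on the GFP control arrays. The groups did not overlap, but Reg4 lay under the filter, and the difference of -0.22 shrank to -0.08 with 16 added. Chga, the granule protein of enteroendocrine cells, read 8.57, 8.50 and 8.65 on the arrays labelled IRF2, against 10.1, 9.996 and 7.79 on the GFP control arrays, with overlap. In bulk RNA, fewer cells of a type and less RNA per cell cannot be told apart.

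Of the 9 dim probe sets, 3 were lower without overlap (Prom1, Vil1 and Reg4) and 1 was higher (Ascl2), against 5.15% lower and 6.62% higher among all 18015 probe sets at or under the filter. These shares are a description. Some readings of Prom1 and Vil1, and all of Ascl2's 1422396_s_at, lay within the range of the tryptophan controls. When the fit was repeated without the filter, limma called 0 of the 9 at an adjusted p under 0.05, against 2.06% of all 18015. At an unadjusted p under 0.05 there were 3 of the 9, against 7.52% of all 18015.

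The promoter windows of Tspan8 and Cd44 are shown, as the 2 genes with a probe set that passed. They are RefSeq sequences (GRCm38.p6) of 300 bases, 250 before to 50 after the gene's start, read on the gene's strand: chr10:115817034-115817333 (+) for Tspan8 and chr2:102901616-102901915 (-) for Cd44. Capitals mark CTTTGA, the core that TCF factors bind.
Tspan8: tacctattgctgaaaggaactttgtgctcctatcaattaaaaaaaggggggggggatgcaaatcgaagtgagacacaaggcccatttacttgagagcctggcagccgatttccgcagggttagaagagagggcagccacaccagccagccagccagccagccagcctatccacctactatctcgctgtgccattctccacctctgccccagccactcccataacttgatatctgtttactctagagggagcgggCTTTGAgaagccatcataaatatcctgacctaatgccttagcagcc
Cd44: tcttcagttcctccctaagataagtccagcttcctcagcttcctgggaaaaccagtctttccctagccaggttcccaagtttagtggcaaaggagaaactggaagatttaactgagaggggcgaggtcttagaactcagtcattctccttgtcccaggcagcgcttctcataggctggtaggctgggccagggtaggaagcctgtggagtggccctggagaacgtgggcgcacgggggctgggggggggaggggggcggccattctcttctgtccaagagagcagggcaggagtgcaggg
Windows were found for 8 of the 10 genes, 9 in all. The interferon regulatory factor element core, GAAA and GAAA with any 2 bases between them, was searched on both strands and was in 0 of the 9 windows, against 3.44% of all 32851 windows. CTTTGA was in 2 of the 9, those of Tspan8 and of 1 Prom1 start, against 16% of all windows, and the E-box CANNTG in 6, against 72.3%. A match describes the letters only, and an absent match says nothing of the factor.

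Genes of each lineage were counted from 12 lists, each gene by its brightest probe set. The lists hold the 10 markers too, which were left out of the counts in this paragraph. Over all 12795 genes tested, 34.2% were called, 15.6% higher and 18.6% lower, with a median difference of -0.0007. Of the 90 other listed genes tested, 16 rose and 17 fell. Of 18 other crypt stem and progenitor genes on the array, 16 were tested, 3 rose and 4 fell, with a median of -0.05. Of 24 other absorptive genes, 12 were tested, 1 rose and 2 fell, with a median of 0.06. Of 19 other goblet and deep crypt secretory genes, 10 were tested, 1 rose and 1 fell. Of 21 other enteroendocrine genes, 10 were tested, 0 rose in limma (0 at an unadjusted p under 0.05) and 2 fell. All 9 tuft cell genes were tested, with 1 higher and 1 lower, and 1 of 4 Paneth genes was tested and not called. All 8 genes of a regenerative or fetal-like list were tested, with 5 higher and 1 lower and a median of 0.12. The share of these genes above the filter was 88.9% for the stem list, 50.0% for the absorptive, 52.6% for the goblet and 47.6% for the enteroendocrine list, against 70.3% of all genes.

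**Figure D3:**
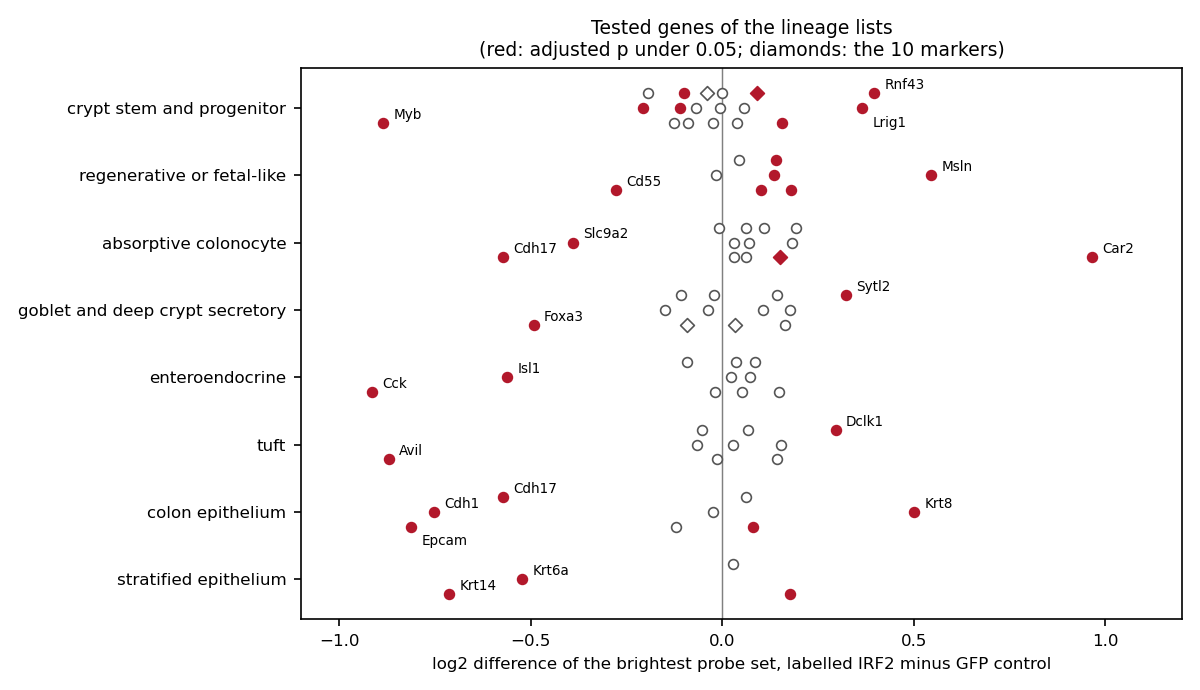
Log2 difference, arrays labelled IRF2 minus GFP control arrays, of the tested genes of the lineage lists, each by its brightest probe set. The Paneth, immune, fibroblast and endothelial lists are not drawn, and a gene of more than 1 list is drawn in each. Filled points are genes that passed the test and diamonds are the markers. Car2 lies at the high end with 0.96 and Cck at the low end with -0.91.

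On the stem side, Myb, a transcription factor of progenitor cells, fell to 16.1, 14.0 and 15.9 on the arrays labelled IRF2, against 26.7, 29.3 and 29.0 on the GFP control arrays (-0.89, SE 0.09, limma adjusted p = 4.2e-06), and by 0.50 with 16 added to every intensity. Rnf43, a ubiquitin ligase that removes Wnt receptors and is itself a Wnt target, rose by 0.40 (SE 0.04, limma adjusted p = 6.08e-06), and Cd24a, a surface glycoprotein, by 0.16 (SE 0.02, limma adjusted p = 8.56e-06). Chosen after their values were seen, Lrig1, a brake on ErbB receptors, rose by 0.37 (with -0.01 in 1 of its 3 probe sets), and Smoc2, Slc12a2 and Hopx fell by 0.10, 0.11 and 0.21. Lgr5, the receptor that marks crypt base stem cells, read 26.5 ± 2.26 on the arrays labelled IRF2 and 30.3 ± 4.06 on the GFP control arrays (-0.19, SE 0.10, limma adjusted p = 0.18). Axin2, a Wnt target, read 436 ± 9.33 on the arrays labelled IRF2 and 425 ± 8.58 on the GFP control arrays (0.04, limma adjusted p = 0.416). Olfm4, another stem cell marker, lay under the filter.

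Among absorptive genes, Car2, a carbonic anhydrase, stood at 1891, 1869 and 1864 on the arrays labelled IRF2, against 953, 966 and 965 on the GFP control arrays (0.96, SE 0.02, limma adjusted p = 5.31e-12). Cdh17, the liver-intestine cadherin, fell by 0.57 (SE 0.03, limma adjusted p = 4.02e-08) and Slc9a2, a sodium-proton exchanger, by 0.39 (SE 0.05, limma adjusted p = 5.2e-05). Ezr, the brush border linker ezrin, was 0.03 higher (limma adjusted p = 0.515). The mature markers Krt20, Slc26a3 and Car1 lay under the filter. Among secretory genes, Sytl2, a granule-tethering protein, rose by 0.32 (SE 0.06, limma adjusted p = 8.95e-04) and Foxa3, a transcription factor, fell by 0.49 (SE 0.09, limma adjusted p = 9.2e-04), or by 0.21 with 16 added. The goblet cell factors Atoh1 and Spdef differed by -0.11 and 0.16 (limma adjusted p = 0.648 and 0.268), and Agr2 lay under the filter.

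Cck, a gut hormone of enteroendocrine cells, fell to 922, 1023 and 998.9 on the arrays labelled IRF2, against 1849, 1845 and 1849 on the GFP control arrays (-0.91, SE 0.03, limma adjusted p = 3.55e-10). Isl1, a transcription factor of endocrine cells, fell by 0.56 (SE 0.04, limma adjusted p = 9.31e-08). Cpe, the prohormone-processing carboxypeptidase, was 0.02 higher (limma adjusted p = 0.558), the hormone gene Pyy was 0.04 higher (limma adjusted p = 0.826) and Neurog3, which starts the endocrine fate, lay under the filter. Of the tuft cell genes, Avil, the actin-binding advillin, fell to 282, 284 and 285 on the arrays labelled IRF2, against 520, 521 and 514 on the GFP control arrays (-0.87, SE 0.03, limma adjusted p = 1.68e-10). Dclk1, a tuft cell kinase, rose by 0.30 (SE 0.05, limma adjusted p = 7.73e-04), with 4 of its 9 probe sets called, all higher, and a mean over the 9 of 0.19. Of the regenerative list, Msln (mesothelin), the annexin Anxa3 and the matricellular YAP target Ccn1 rose by 0.55, 0.14 and 0.13, the complement regulator Cd55 fell by 0.28, and Anxa1 did not pass by its brightest probe set (-0.02) and was called lower by its second (-0.38).

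**Figure D4:**
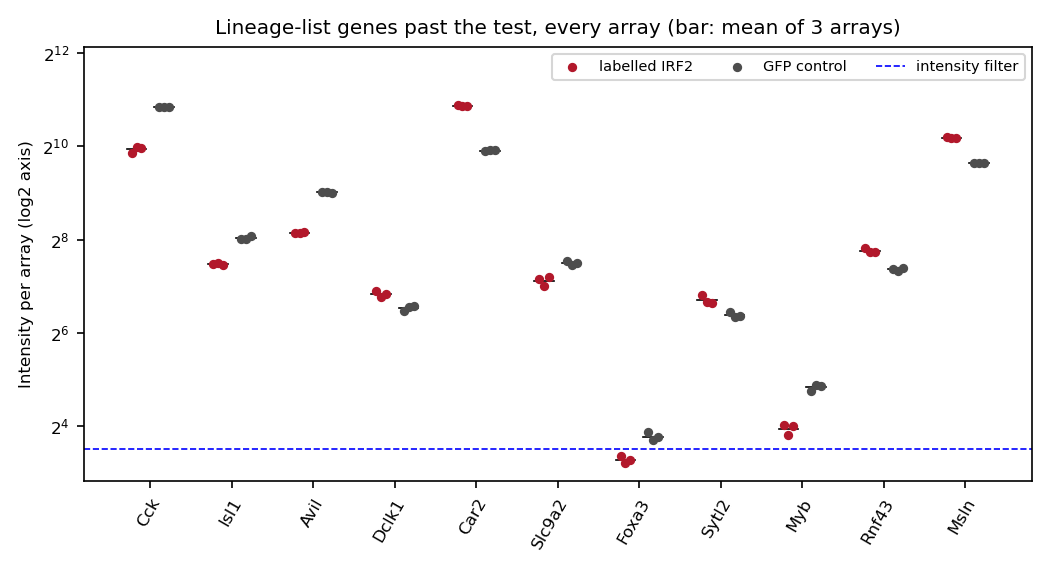
Deposited intensity (log scale, dashed line at the filter) of lineage genes outside the 10 markers that passed the test, with 1 point for each array, arrays labelled IRF2 left of GFP control arrays, and a bar at the mean of 3 arrays. Car2 was higher in the arrays labelled IRF2 and Cck, Avil and Myb were lower, with no overlap between the groups.

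The label of colon epithelium was checked against 11 markers, of which 8 were tested, 2 rose and 3 fell. Krt8, a simple keratin, rose by 0.50 and Krt18 by 0.08, while Cdh1, which encodes E-cadherin, fell by 0.75. The keratin Krt19 differed by -0.02 and was not called (limma adjusted p = 0.391). Krt8, Krt18 and Krt19 ranked between the 99.2 and 99.6 percentiles on all 6 arrays. Epcam and Cdx2, chosen after their values were seen, read 27.8 ± 5.31 and 86.0 ± 3.76 on the arrays labelled IRF2, and 48.2 ± 1.27 and 93.5 ± 3.52 on the GFP control arrays. The difference passed for Epcam (-0.81, with -0.04 in its other probe set, which was not called) and not for Cdx2 (-0.12, limma adjusted p = 0.123). Lgals4, also chosen after the values were seen, differed by 0.06 and was not called (limma adjusted p = 0.735). Vil1 and Krt20 lay under the filter. The stratified epithelial keratin Krt14 fell to 117 ± 8.31 on the arrays labelled IRF2, against 191 ± 11.9 on the GFP control arrays. Of the 4 stratified genes tested, 1 rose and 2 fell. Markers of other cell types were summed on each array. The sum of 9 fibroblast genes was 254 to 271 on the arrays labelled IRF2 and 232 to 235 on the GFP control arrays, without overlap, and 2 of the 6 tested rose (Pdgfra by 0.70, Acta2 by 0.37) and 1 fell (Pdgfrb, by 0.40). Only Pdgfra kept its call in the mean of a gene's probe sets, at 0.36, while Acta2 stood at 0.11 and Pdgfrb at -0.16. The sum of 8 immune genes was 229 to 240 on the arrays labelled IRF2 and 208 to 230 on the GFP control arrays, and 0 of 5 tested were called by limma, with 1 at an unadjusted p under 0.05. The sum of 6 endothelial genes was 90.4 to 103 on the arrays labelled IRF2 and 98.2 to 108 on the GFP control arrays, and 1 of 3 tested, Egfl7, fell by 0.22. Of Egfl7's 4 tested probe sets, 3 were called lower, and the 4 ran from -0.40 to -0.04. Their mean was -0.22 (limma adjusted p = 0.0072). The transferrin receptor 3' over 5' ratio, a sign of RNA quality, was 3.81 to 4.47 on the arrays labelled IRF2 and 3.61 to 3.78 on the GFP control arrays, also without overlap. The beta-actin 3' over 5' ratio overlapped, at 0.996 to 1.023 on the arrays labelled IRF2 and 1.001 to 1.017 on the GFP control arrays. The 18S rRNA 5' probe set read 2099 to 2254 on the arrays labelled IRF2 and 1798 to 2034 on the GFP control arrays, without overlap. The part of these values in the results was not tested.

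By pattern over the 6 arrays, the tested gene most like each tested marker was Tspan31 for Sox9 (Pearson r = 0.997), Tbl1x for Cd44 (r = 0.994), Krtap26-1 for Tspan8 (r = 0.999), 1700018L02Rik for Muc2 (r = 0.990) and Spring1 for Tff3 (r = 0.994). These are the highest of many correlations over 6 arrays that share their groups.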

How the data were processed

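The deposited table holds 1 linear intensity per probe set and array, made by the authors from 6 Affymetrix 3' arrays. The submitters' processing notes list MAS5 without saying what it did; the scaling and the genome build were not stated in the labels. The array medians lay between 18.2 and 18.7, so no further scaling was applied. Symbols came from GEO's platform annotation, updated through the gene number in a RefSeq table (GRCm38.p6): 34945 of 45037 non-control probe sets had 1 symbol, 932 had several and 9160 had none listed. No detection calls were used.

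The log2 values of the deposited intensities were fitted for the 27022 probe sets above the 40th percentile with limma 3.58.1 in R 4.3.3 (lmFit, eBayes with an intensity trend), with group as the only term which left 4 residual degrees of freedom. All tests were two-sided, with Benjamini-Hochberg adjustment over all probe sets tested. The fit was also run on simulated data with independent noise on each array. That run cannot tell if replicate arrays stem from separate cultures. The markers and lists were chosen with earlier results of these data known; 5 of the 158 listed genes stand in more than 1 list. Genes named were all probe sets of the 10 markers, from each list up to 3 genes with the smallest p past the threshold and the 2 brightest, a set of defining markers, the gene most like each tested marker, and Irf2; not all are given. Deviations of same-numbered arrays correlated by 0.06, -0.06 and 0.00. These values showed no strong shared effect of the numbers but cannot settle if the arrays were paired. Alternatives were quantile normalization, 16 added before the log, no filter or a stricter one, other variance models, other probe set summaries, a replicate block and leaving out each array.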

Additional observations from a re-analysis of the deposited data

How the results depend on the processing

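Over all probe sets, the counts of 3513 higher and 4246 lower became 2111 and 2531 with 1 probe set a gene and 1811 and 2148 with the mean over a gene's probe sets, both of which test fewer features; leaving out 1 array gave 2844 to 3205 higher and 3292 to 4049 lower. Among the markers' probe sets, the 2 calls became 1 without the intensity trend and 1 to 3 with 1 array left out. By gene, the 2 calls became 1 without the trend, 1 in the mean over probe sets and 1 to 2 with 1 array left out. The lost call was that of Cd44, at 0.090 (adjusted p = 0.181) without the trend, 0.071 (adjusted p = 0.0637) as the mean over its probe sets and 0.063 to 0.11 with 1 array left out; the cause was not tested. Tspan8 kept its call in all 15 alternatives, with an adjusted p between 1.85e-04 and 0.0479. With the replicate block the same 2 probe sets were called (adjusted p = 3.01e-04 for Tspan8 and 0.0102 for Cd44), and over all probe sets 3529 were higher and 4244 lower. Over the 12 lists together, with the markers in them, 18 genes rose and 17 fell, and 17 to 19 rose and 13 to 19 fell in the 15 alternatives. The immune list, with 0 called, had 1 gene called higher (Cd14) in 7 of them. With 1 array left out, the call of Cd55 was lost without GFP control array 3 or array 1 or 3 labelled IRF2, and that of Egfl7 without GFP control array 2 or 3 or array 1 or 2 labelled IRF2. Krt18 lost its call without the trend (adjusted p = 0.134), as did Cd55, and Egfl7 without the trend or without the filter.

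Uncalled values turned their sign with 1 array left out: Sox9's dimmer tested probe set ran from -0.16 to 0.0052, Tspan8's 1420017_at from -0.0044 to 0.058, Muc2 from -0.22 to 0.061 and Tff3 from -0.027 to 0.11. Outside the markers, Atoh1 ran from -0.27 to 0.078, Cpe from -0.0066 to 0.043, Ezr from -0.0026 to 0.056, Fcgbp from -0.061 to 0.036, Mmp7 from -0.013 to 0.17, Pyy from -0.0098 to 0.10 and Csf1r from -0.11 to 0.039, with 0.013 for Csf1r as the mean over probe sets. Without the filter, Prom1 came closest to a call among the 9 dim probe sets (adjusted p = 0.0504). Signal close to background limits what can be said of those 9.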
